A study of Rattus norvegicus with 8 samples.

Results

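Kidney allografts from recipients treated with an antibody against the interleukin-6 receptor (anti-IL6R) were compared with untreated grafts of the same kind, using 4 of the series' 8 microarrays. They were chosen by their labels: the 2 arrays of anti-IL6R-treated grafts and the 2 of untreated grafts, both with a high weight difference between donor and recipient. In all groups a Dark Agouti (DA; RT1a) kidney spent 25 min in cold University of Wisconsin solution (4 °C) and was then placed orthotopically into a bilaterally nephrectomized male Lewis (LEW; RT1l) rat, so the strains differed in their major histocompatibility complex (MHC). Grafts were taken after 24 h. The rats were naive inbred animals of 120 to 250 g, and in both compared groups the donor was 20 to 50% lighter than the recipient. Treated recipients had 500 µg of neutralizing anti-IL6R antibody as a single intravenous injection straight after surgery, and no control antibody is named for the untreated ones. The other 4 arrays were low-difference grafts, whose donors were 0 to 20% lighter, and high-difference grafts of recipients given 15 mg/kg of prednisolone. They entered the estimate of spread, and their levels are shown beside the results. Each group had 2 biological replicates, and the sources used here do not say whether a replicate was 1 graft or a pool.

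Interleukin-6 acts on a cell by binding its receptor, IL6R, on the membrane or in soluble form, and the pair then recruits the shared subunit gp130 (encoded by Il6st). Janus kinases attached to gp130 phosphorylate the transcription factor STAT3, which induces acute-phase genes and its own inhibitor Socs3. Other cytokines of the family, such as ciliary neurotrophic factor and leukaemia inhibitory factor, use gp130 with receptors of their own, and the antibody named in the labels is directed at IL6R. In a kidney graft, reperfusion injury, tubular stress and the entry of recipient leukocytes overlap in time during the early hours after surgery.

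The arrays were 1-colour Agilent arrays labelled from 1 µg of total RNA. Levels are log2 processed signals relative to the 75th percentile of the same array, and a difference is the treated mean minus the untreated mean with its moderated standard error (SE). Where the levels of the pairs are joined by "against", the untreated pair comes first. Of the gene spots, 66.5% and 65.3% were well above background on the untreated arrays and 71.5% and 74.0% on the treated ones. The 75th percentile of the processed signal was 932 and 992 on the untreated arrays and 1331 and 1700 on the treated ones, and the part of this brightness in the results was not tested. Across genes the treated pair correlated at r = 0.992 and the untreated pair at r = 0.981. On the first principal component of the 8 arrays, which held 39.0% of the variance, untreated replicate 2 stood apart at -93.5. Untreated replicate 1 was at -32.3 and the treated arrays at 33.8 and 17.5. The low-difference arrays were at 45.3 and 19.1, and prednisolone replicates 1 and 2 lay far from each other, at -42.1 and 52.3. Of 51 proximal tubule genes tested, 50 were well above background on all 4 arrays, which bears on the labelled tissue. The untreated arrays lay on 1 slide and the treated arrays on another, so treatment and slide cannot be told apart in any result below. The low-difference arrays shared the slide of the untreated arrays, and the prednisolone arrays that of the anti-IL6R arrays. In whole tissue, fewer cells of a type and less RNA per cell cannot be told apart either.

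The treated grafts had higher levels of genes of T cells, macrophages, antigen presentation, endothelium and matrix, and lower levels of genes of amino acid stress, antioxidant defence and tubular injury. No single difference passed the test. Limma called 0 of 24448 genes (0%) at an adjusted p under 0.05, and the smallest adjusted p was 0.0663. At an unadjusted p under 0.05, 1734 genes were higher (7.09% of all tested) and 2597 lower (10.6%) in treated grafts. Both treated arrays lay above both untreated arrays for 5734 genes (23.5%) and below them for 8887 (36.4%), and 43.3% of the genes had a difference above 0. Large differences were more often upward, since 1974 genes were over 2-fold higher and 749 over 2-fold lower. The median over all genes was -0.09. These shares over all genes are the ones to set beside the counts of each list below.

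**Figure D1:**
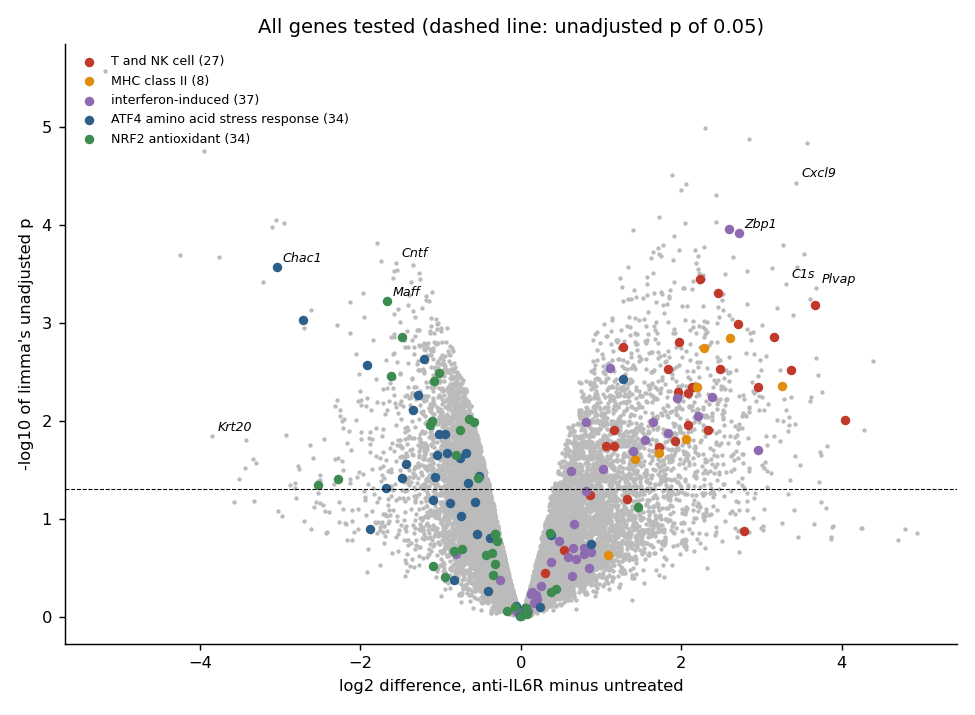
Each point is 1 of 24448 genes, placed by its log2 difference between anti-IL6R and untreated grafts (horizontal axis) and by -log10 of limma's unadjusted p (vertical axis), with 5 gene lists in colour. T and NK cell and MHC class II genes lie on the right and most ATF4 and NRF2 genes on the left, and 0 genes passed after adjustment.

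The count called depended on which arrays set the estimate of spread. A fit of the 4 compared arrays alone, with 2 residual degrees of freedom, called 0 genes. With the prednisolone group left out of the limma fit and the low-difference group kept, 166 of 24448 genes were called. Of these, 137 were higher and 29 lower in treated grafts. Leaving out either prednisolone array alone is the same fit for this comparison, since a lone array adds nothing to the estimate of spread. Among the 166 were 13 of the 27 T and NK cell genes tested and 5 of the 37 interferon-induced genes, all higher. Also called were 2 of 51 proximal tubule genes, 2 of 35 tubular injury genes and 1 of 34 ATF4 genes, all lower. Of the higher ones, Cd2, Cd3e, Ctsw and Gbp5 were not well above background in untreated grafts. Leaving out a compared array changed the differences as well as the spread. Without untreated replicate 1, untreated replicate 2 alone stood for its group, and the median over all genes was -0.12. Without untreated replicate 2, the counts at an unadjusted p under 0.05 were 1047 higher and 760 lower. They were 806 and 1035 without treated replicate 1, and 878 were lower without treated replicate 2. Scaling moved the balance of directions: with the spike-in spots as reference, 87.9% of genes had a difference above 0 and the median over all genes was 0.53, against 43.3% and -0.09 here. With normexp background correction the share above 0 was 28.4%.

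**Figure D2:**
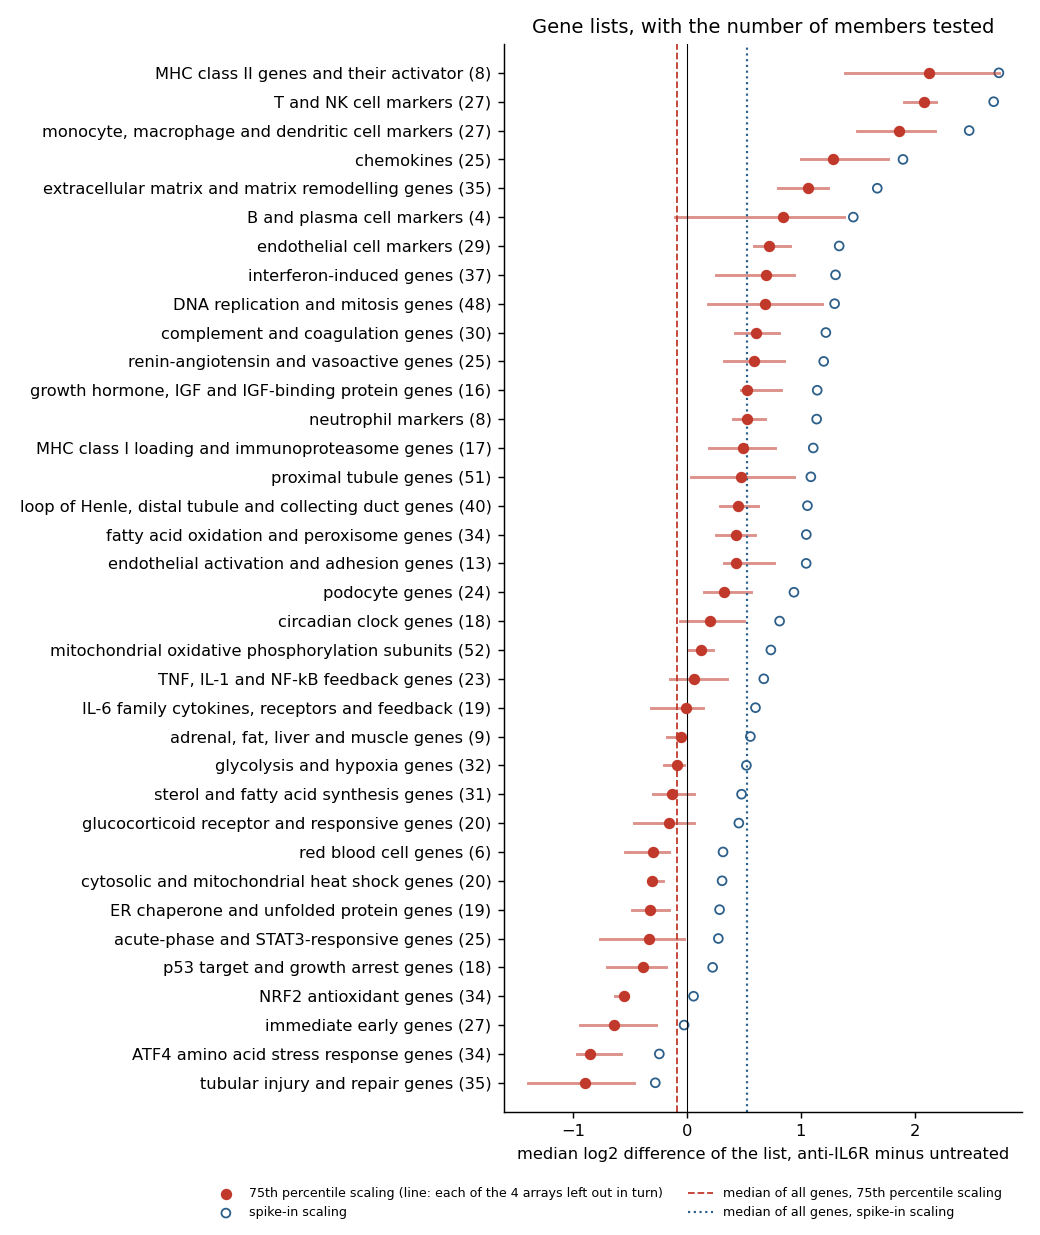
Each row is a gene list with the number of members tested, and the filled point is the median log2 difference of its members between anti-IL6R and untreated grafts. The line spans the medians with each of the 4 arrays left out in turn, open points show spike-in scaling, and the vertical lines are the medians of all genes. MHC class II (2.13) and T and NK cell genes (2.08) stand at the top, and ATF4 (-0.86) and tubular injury genes (-0.89) at the bottom.

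The genes of the IL-6 family did not move in 1 direction. Of 24 listed, 19 were tested, with 9 differences above 0 and a median of -0.01 (0.60 with spike-in scaling). By unadjusted p under 0.05, 3 were higher and 4 lower. Among the ligands, Il6 itself was well above background on none of the 4 arrays and was not tested. Ciliary neurotrophic factor, Cntf, a cytokine that signals through gp130, measured 1.97 and 2.32 in untreated and 0.45 and 0.72 in treated grafts. The groups lay apart, at a difference of -1.56 ± 0.21 (SE, limma adjusted p = 0.14). The low-difference arrays, at 0.39 and 0.56, and the prednisolone arrays, at 0.61 and 0.47, lay with the treated pair. Clcf1, another ligand of the ciliary neurotrophic factor receptor, measured 1.35 and 2.53 in untreated and 0.09 and -0.42 in treated grafts, and its groups did not overlap either (-2.11 ± 0.68, limma adjusted p = 0.23).

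The receptor chains went different ways. Il6r, the antibody's target, had levels of -1.53 and -1.47 in untreated and -0.81 and -1.56 in treated grafts. The groups overlapped, and the difference of 0.32 ± 0.45 was smaller than its error and turned to -0.06 without treated replicate 1. Il6st, which encodes gp130, was higher on both treated arrays (-0.25 and 0.10 against 0.33 and 0.63; 0.55 ± 0.21, limma adjusted p = 0.27). Lifr, which pairs with gp130 for leukaemia inhibitory factor, was lower, at -1.76 and -1.90 against -2.47 and -2.43 (-0.62 ± 0.18, limma adjusted p = 0.22). Osmr, the oncostatin M receptor, had -1.04 and -0.23 in untreated and -1.34 and -1.64 in treated grafts, which did not overlap but differed by less than 2 standard errors (-0.86 ± 0.49, and -0.45 without untreated replicate 2). With spike-in scaling Lifr stood at -0.01.

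Downstream of the receptors, Stat3 measured 3.75 and 4.11 in untreated and 3.88 and 3.48 in treated grafts, which overlapped (-0.25 ± 0.24). Its inhibitor Socs3 overlapped too, with -2.75 and -1.27 against -2.57 and -2.64. Its difference of -0.60 ± 0.61 was set by untreated replicate 2, without which it was 0.14, and spike-in scaling gave 0.02 for Socs3 and 0.36 for Stat3. The phosphatase gene Ptpn11, whose product SHP2 links gp130 to the MAP kinase pathway, was lower on both treated arrays, at 2.92 and 3.13 against 2.19 and 2.27 (-0.80 ± 0.21, limma adjusted p = 0.21).

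**Figure D3:**
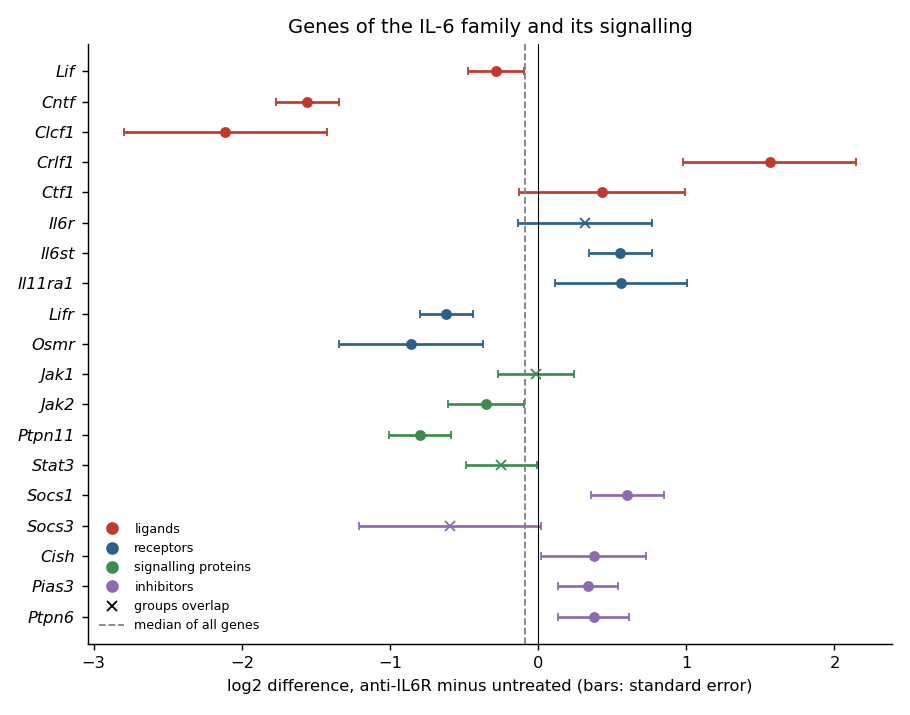
Each row is a gene of the IL-6 family list, coloured by role, with its log2 difference between anti-IL6R and untreated grafts and the standard error as a bar. Crosses mark genes whose groups overlap, among them Il6r at 0.32, Stat3 at -0.25 and Socs3 at -0.60. Cntf (-1.56) and Clcf1 (-2.11) lie farthest to the left.

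Acute-phase and STAT3-responsive genes had a median of -0.34, with 18 of 25 tested below 0, beside 13874 of 24448 over all genes. At an unadjusted p under 0.05, 3 were higher and 2 lower, where 7.09% and 10.6% of all genes tested were. The median was -0.03 without untreated replicate 2 and -0.77 without untreated replicate 1, and it turned to 0.27 with spike-in scaling. Fga, the fibrinogen alpha chain, measured 5.66 and 8.21 in untreated and 4.47 and 3.86 in treated grafts. The treated arrays were both lower, by -2.77 ± 0.99 (limma adjusted p = 0.25), and without untreated replicate 2 the difference was -1.495. Lcn2, the injury marker lipocalin 2, had -1.93 and 0.31 against -2.23 and -2.72 (-1.66 ± 0.97), which became -0.54 without untreated replicate 2 and -2.78 without untreated replicate 1. Timp1, an inhibitor of metalloproteinases, overlapped between the groups (-0.80 ± 0.86, and -0.23 without untreated replicate 2). Other members were higher in treated grafts. Ceruloplasmin, Cp, the copper-carrying ferroxidase, measured -2.31 and -2.93 against -0.52 and -1.12 (1.80 ± 0.42, limma adjusted p = 0.20), and hemopexin, Hpx, which binds free haem, differed by 1.69 ± 0.55 (0.86 with normexp). The TNF, IL-1 and NF-kB feedback genes had a median of 0.06 over 23 tested members, which turned to -0.15 with normexp and to -0.08 without untreated replicate 1.

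T and NK cell markers were higher in treated grafts throughout: 27 of 27 tested had a difference above 0, 26 did not overlap between the groups and 22 had an unadjusted p under 0.05. Set against each gene's mean over the 8 arrays, the members' median was -1.21 and -1.10 on the untreated arrays and 0.98 and 0.60 on the treated ones. The low-difference arrays stood between, at 0.44 and 0.40, while prednisolone replicates 1 and 2 were at 0.73 and -0.67. The median difference was 2.08, and 12 of the 27 were not well above background in untreated grafts, whose arrays were the dimmer pair, so their folds have only lower bounds. With those at their bound it was 1.28, over the 12 members above background on all 4 arrays it was 1.499, and with normexp it was 0.59. A further 10 members with a probe were not tested, 9 for being dim and Il2rg for a flagged spot.

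Granzyme B, Gzmb, a protease of cytotoxic lymphocytes, measured -5.97 and -7.48 on the untreated arrays and -2.77 and -3.33 on the treated ones. It was at least 5.30-fold higher in treated grafts (limma adjusted p = 0.16), since neither untreated array was well above background. Such a bound sets the treated mean against the dimmest signal the arrays measured above background. Cd2, an adhesion receptor of T cells, was at least 2.02-fold higher (-7.18 and -6.64 against -4.78 and -4.12), and Ctsw, a protease of cytotoxic cells, at least 1.49-fold. Normexp gave log2 differences of 0.91 for Gzmb, 0.35 for Cd2 and 0.31 for Ctsw, below these bounds. Cd3e, a chain of the T cell receptor complex, was at least 1.09-fold higher, and with normexp its difference was -0.15.

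Markers of myeloid cells were also higher. Of 27 monocyte, macrophage and dendritic cell markers tested, 26 had a difference above 0, 26 did not overlap and 22 had an unadjusted p under 0.05, with a median of 1.87. Csf1r, the receptor for the growth factor that macrophages depend on, measured -2.42 and -3.21 in untreated and -0.20 and -0.55 in treated grafts. The 2 treated arrays were well above the untreated ones, a 5.45-fold difference (2.45 ± 0.50, limma adjusted p = 0.19). Aif1, a calcium-binding protein of macrophages, had 1.41 and 1.13 against 3.97 and 3.56 (2.50 ± 0.59), and Cd86, a costimulatory ligand for T cells, -3.14 and -3.27 against -1.64 and -2.21 (1.28 ± 0.26, and 0.65 with normexp). Ms4a7, a membrane protein of macrophages, was at least 9.33-fold higher (limma adjusted p = 0.19), and normexp gave it a log2 difference of 1.41, below that bound. Neutrophil markers had a median of 0.53 over 8 tested members (0.05 with normexp), 2 of them with an unadjusted p under 0.05 (Prtn3 at 0.56 and Np4 at 0.49).

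MHC class II genes present peptides to CD4+ T cells and are regulated by the activator Ciita. All 8 tested of 12 listed were higher on both treated arrays, 7 with an unadjusted p under 0.05, and the median was 2.13 (1.39 without untreated replicate 2). RT1-Da measured 1.998 and 0.91 in untreated and 4.19 and 3.93 in treated grafts, a 6.09-fold difference (2.61 ± 0.49, limma adjusted p = 0.17). The low-difference arrays, at 3.73 and 3.50, were nearer to the treated pair. RT1-Db1 differed by 2.29 ± 0.45, RT1-Ba by 3.26 ± 0.76 and RT1-Bb by 2.20 ± 0.51, each without overlap, and RT1-Ba differed by 1.49 with normexp. Genes of this family are near-identical copies that differ between the donor and recipient strains, so the probes may not tell them apart. Class I loading and immunoproteasome genes were less far apart, with 15 of 17 above 0 and a median of 0.50 (0.19 without untreated replicate 1). B2m, the light chain of class I molecules, had 6.31 and 6.48 against 7.21 and 6.95 (0.69 ± 0.22, limma adjusted p = 0.23), and RT1-CE5, a class I heavy chain, differed by 2.16 ± 0.51 (1.24 with normexp and 1.098 with flagged spots kept).

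**Figure D4:**
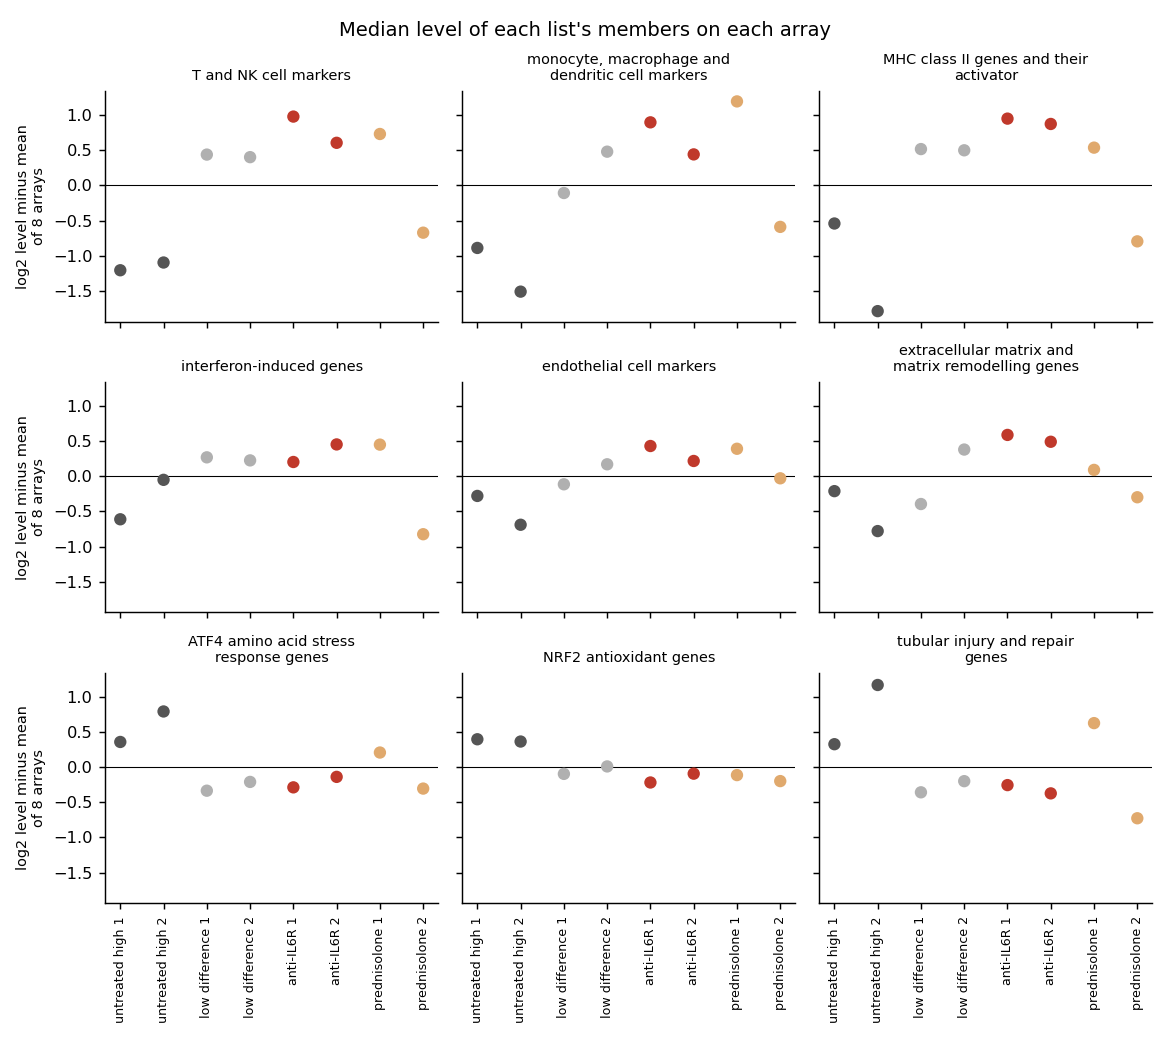
Each panel is a gene list and each point an array: the median over the members of the log2 level minus the gene's own mean over the 8 arrays. T and NK cell genes stand at -1.21 and -1.10 on the untreated arrays and at 0.98 and 0.60 on the anti-IL6R arrays, and ATF4 genes at 0.36 and 0.79 against -0.29 and -0.14.

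Interferon-induced genes had a median of 0.69, with 34 of 37 tested above 0, 21 higher and 2 lower without overlap, and 14 higher and 0 lower at an unadjusted p under 0.05. Without untreated replicate 1 the median was 0.26, and with normexp it was 0.33. The members with the smallest p were Gbp5, Zbp1, Igtp and Gbp2, of which 3 encode GTPases that act against intracellular pathogens. Promoters were taken from RefSeq (GRCr8), from 250 bases before to 50 after the gene's start, and 3 of the 4 genes had an entry. All 3 promoters hold the interferon response core TTTCNNTTT, as do 11.78% of the 33469 promoters in the table, searched on both strands with overlaps allowed. The stretches below show these matches in capitals, for genes that were taken by their p in this comparison. In Gbp5 2 matches overlap, and in Igtp the match is on the opposite strand and the capitals before it are the STAT site TTCNNNGAA, which 8.87% of promoters hold. All stretches are written 5′ to 3′ on the gene's strand (here plus), at chr2:233910879-233910998 for Gbp5, chr2:234005607-234005726 for Gbp2 and chr10:42874897-42875016 for Igtp.
Gbp5: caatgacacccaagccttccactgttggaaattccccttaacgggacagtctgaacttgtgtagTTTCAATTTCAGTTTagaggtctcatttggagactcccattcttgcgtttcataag
Gbp2: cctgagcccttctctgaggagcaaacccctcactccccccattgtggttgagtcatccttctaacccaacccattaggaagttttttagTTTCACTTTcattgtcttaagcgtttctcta
Igtp: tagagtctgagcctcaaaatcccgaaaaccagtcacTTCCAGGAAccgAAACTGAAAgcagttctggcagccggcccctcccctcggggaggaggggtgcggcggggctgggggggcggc

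Gbp2, whose promoter holds 1 match, measured 2.17 and 1.82 in untreated and 4.23 and 4.52 in treated grafts, with no overlap (2.38 ± 0.58, limma adjusted p = 0.20). Igtp, a GTPase of the immunity-related family, had -1.13 and -1.47 against -0.32 and -0.06 (1.11 ± 0.24). Zbp1, a sensor of nucleic acids, had -4.99 and -4.53 against -2.18 and -1.89, a 6.60-fold difference (2.72 ± 0.33, limma adjusted p = 0.14; 1.204 with normexp). In each of these genes both treated arrays lay above both untreated ones. Gbp5 was at least 1.58-fold higher (-7.53 and -7.26 against -5.10 and -4.50), but it was not well above background in untreated grafts, and normexp gave a difference of -0.07.

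Chemokines, which guide leukocytes into tissue, had a median of 1.28, with 20 of 25 tested above 0. At an unadjusted p under 0.05, 10 were higher and 0 lower, and normexp gave a median of 0.52. Cxcl9, an interferon-gamma-induced ligand that attracts activated T cells, measured -4.93 and -4.47 in untreated and -1.20 and -1.36 in treated grafts. It was 10.8-fold higher (3.43 ± 0.34, limma adjusted p = 0.12), with a log2 difference of 2.004 under normexp, and the low-difference arrays, at -1.33 and -2.27, were also far above the untreated pair. Ccl19, which draws T cells and dendritic cells through Ccr7, had 1.91 and 0.63 against 5.65 and 3.49 (3.30 ± 0.86, limma adjusted p = 0.21). Cxcl13, a B cell attractant, differed by 2.18 ± 0.53. Ccl17 and Ccl22, which share the receptor Ccr4, differed by 1.38 ± 0.31 and 0.87 ± 0.20, and normexp gave 0.71 for Ccl17 and turned Ccl22 to -0.03. Ccl2, the main attractant of monocytes, was higher on both treated arrays, at 1.86 and 0.69 against 2.95 and 3.18, but by less than 2 standard errors (1.79 ± 1.06).

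**Figure D5:**
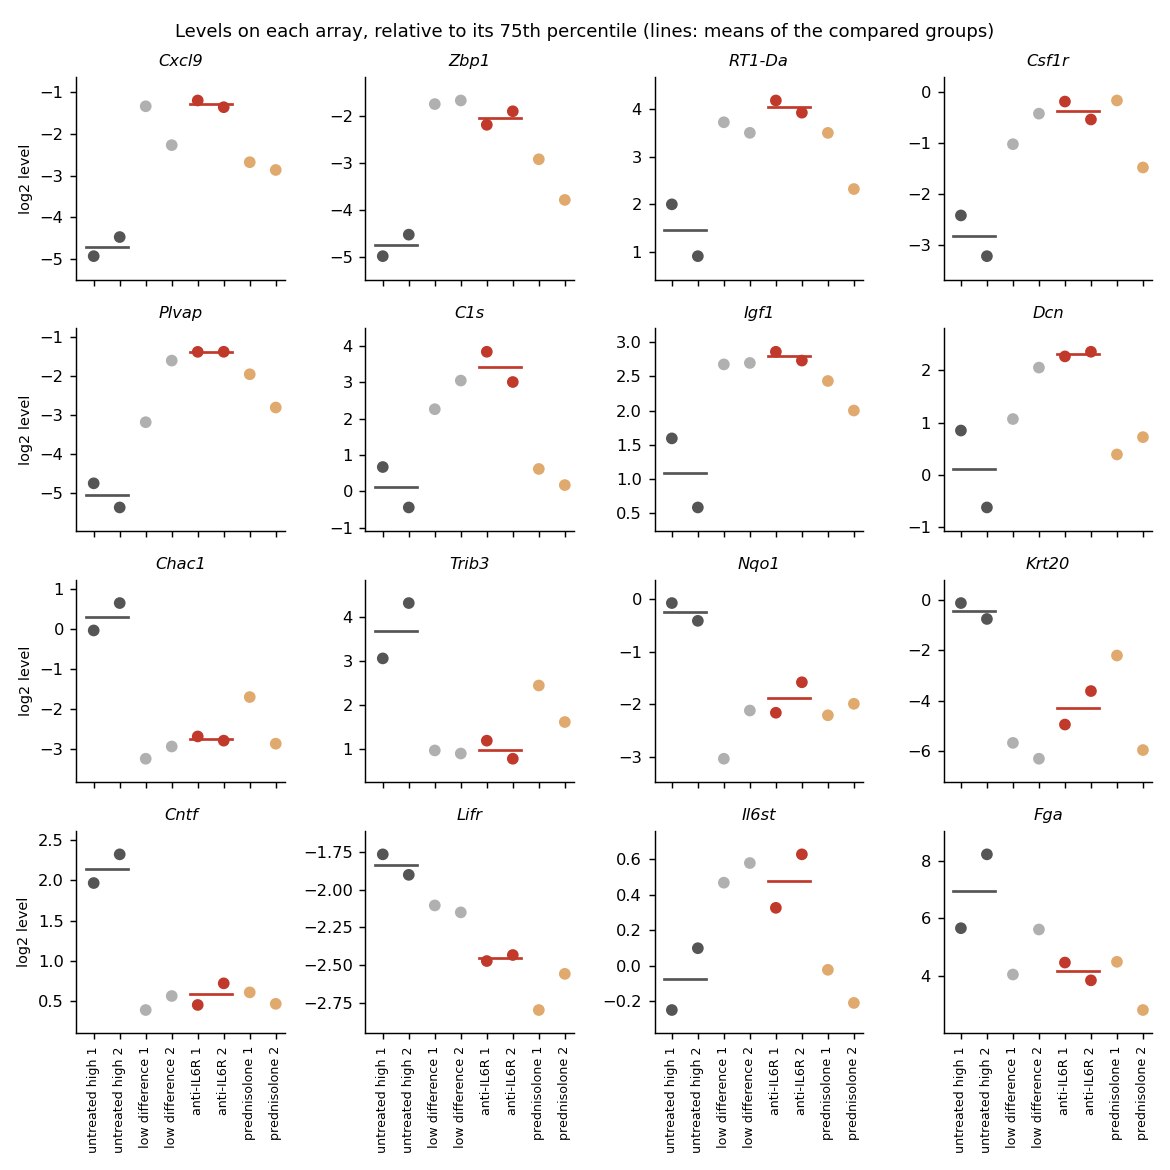
Each panel is a gene and each point its log2 level on an array, relative to the array's 75th percentile, with lines at the means of the 2 compared groups; the vertical scales differ. Cxcl9, Zbp1, Plvap and C1s are higher on the anti-IL6R arrays, Chac1, Trib3, Nqo1 and Cntf lower.

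Endothelial cell markers were higher in treated grafts, with 25 of 29 tested above 0, a median of 0.72 and 14 at an unadjusted p under 0.05. With normexp the median was 0.46. Plvap, which forms the diaphragms of fenestrated capillaries, measured -4.75 and -5.37 in untreated and -1.38 on both treated arrays, a 12.9-fold difference (3.68 ± 0.56, limma adjusted p = 0.15). Its probe was well above background on 1 of the 2 untreated arrays, and normexp gave a difference of 2.06. Tie1, an endothelial receptor tyrosine kinase, had -3.23 and -3.62 against -1.99 and -1.81 (1.53 ± 0.24, limma adjusted p = 0.15). Eng, a coreceptor for TGF-beta, differed by 1.54 ± 0.35 and Aplnr, the apelin receptor, by 1.07 ± 0.20 (0.43 with normexp). Of 13 adhesion and activation genes tested, 10 had a difference above 0. Without overlap 7 were higher and 3 lower, where 23.5% and 36.4% of all genes tested were. At an unadjusted p under 0.05, 3 were higher and 0 lower. Vcam1, which holds leukocytes on inflamed endothelium and is also induced in injured tubules, had 2.72 and 1.56 against 4.47 and 4.00 (2.09 ± 0.51). Thbd, the anticoagulant receptor thrombomodulin, differed by 1.22 ± 0.25. Edn1, the vasoconstrictor endothelin 1, was lower on both treated arrays, at -0.88 and -0.41 against -1.02 and -1.24 (-0.48 ± 0.24). That list had a median of 0.43, or 0.76 without untreated replicate 1.

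Matrix genes had a median of 1.06, with 28 of 35 tested above 0, 17 higher and 1 lower at an unadjusted p under 0.05. Decorin, Dcn, a proteoglycan that binds collagen, measured 0.85 and -0.63 in untreated and 2.27 and 2.36 in treated grafts, with no overlap (2.21 ± 0.53, limma adjusted p = 0.20; 1.47 without untreated replicate 2). Fbn1, the microfibril protein fibrillin 1, differed by 2.33 ± 0.56, Col6a2, a collagen VI chain, by 1.88 ± 0.41 (0.83 with normexp), and Lum, a proteoglycan related to decorin, was at least 1.71-fold higher (log2 difference 0.23 with normexp, below that bound). Outside the list, Ogn and Dpt, small matrix proteins of connective tissue, had differences of 3.27 ± 0.91 and 3.23 ± 0.995. For both, untreated replicate 2 was the lowest of the 4 arrays, and without it the differences were 1.85 and 1.93 (2.08 for Dpt with normexp).

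Complement and coagulation genes had a median of 0.61 over 30 tested, with 13 higher and 1 lower at an unadjusted p under 0.05. C1s, a protease that starts the classical complement pathway, measured 0.67 and -0.44 in untreated and 3.84 and 3.01 in treated grafts, a 9.90-fold difference (3.31 ± 0.49, limma adjusted p = 0.15). Its partner C1r had 0.05 and -0.71 against 2.47 and 1.76 (2.45 ± 0.43, limma adjusted p = 0.17). Both treated arrays lay far above both untreated ones for each, and the prednisolone arrays, at 0.62 and 0.17 for C1s, stayed near the untreated level. C7, a component of the membrane attack complex, was at least 4.77-fold higher in treated grafts (limma adjusted p = 0.17), and normexp gave a difference of 0.69 on the log2 scale, which is below this bound.

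Growth hormone and IGF genes had a median of 0.53, with 12 of 16 tested above 0 and 6 higher at an unadjusted p under 0.05 (median 0.83 without treated replicate 2). Igf1, insulin-like growth factor 1, measured 1.59 and 0.58 in untreated and 2.86 and 2.73 in treated grafts (1.71 ± 0.35, limma adjusted p = 0.19), and 2.68 and 2.70 in low-difference grafts. Its binding proteins Igfbp6 and Igfbp3 differed by 2.38 ± 0.63 and 2.03 ± 0.60, or by 1.35 and 1.28 without untreated replicate 2. All 3 genes were higher on both treated arrays. Among vasoactive genes, with a median of 0.59 (0.33 without untreated replicate 2 and 0.32 with normexp), the endothelin receptor gene Ednra differed by 1.66 ± 0.41 (0.99 as the mean of its probes). The angiotensin receptor gene Agtr1b differed by 1.38 ± 0.37, and by 0.32 with normexp and 0.84 without untreated replicate 2; it was well above background on 1 of the 2 untreated arrays. Nppc, encoding C-type natriuretic peptide, was lower, at -0.53 and 2.89 against -2.80 and -1.44 (-3.31 ± 1.16), and the difference was -1.60 without untreated replicate 2 and -5.01 without untreated replicate 1.

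Genes of the amino acid stress response were lower in treated grafts. In this response, uncharged tRNA or other stress blocks general translation while the transcription factor ATF4 is made and induces genes of amino acid synthesis and transport. Of 34 tested, 29 were below 0, 27 lower and 2 higher without overlap, and 18 lower and 1 higher at an unadjusted p under 0.05. The median was -0.86, or -0.24 with spike-in scaling, where all genes had a median of 0.53. The members' median stood at 0.36 and 0.79 on the untreated arrays, -0.29 and -0.14 on the treated, -0.34 and -0.21 on the low-difference and 0.21 and -0.31 on the prednisolone arrays. The untreated arrays were thus the highest of the 8.

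Chac1, an ATF4-induced enzyme that degrades glutathione, is the list's member with the smallest p. Of the promoters of the list's 4 genes with the smallest p, all with a RefSeq entry, that of Chac1 was the 1 that holds the amino acid response element core TTGCATCA, which 0.79% of promoters hold. The stretch lies at chr3:126795921-126796040 (GRCr8, plus strand, 210 to 91 bases before the start), with the match in capitals.
Chac1: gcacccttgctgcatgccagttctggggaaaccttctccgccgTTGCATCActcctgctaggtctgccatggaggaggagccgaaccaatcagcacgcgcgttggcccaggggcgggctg

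Chac1 measured -0.04 and 0.64 in untreated and -2.69 and -2.79 in treated grafts, and was 8.20-fold higher in untreated grafts (-3.04 ± 0.42, limma adjusted p = 0.14). Trib3, a pseudokinase that restrains ATF4, had 3.06 and 4.33 against 1.19 and 0.78 (-2.71 ± 0.47, limma adjusted p = 0.17). Asns, asparagine synthetase, had 3.03 and 4.00 against 1.38 and 1.82 (-1.92 ± 0.40, limma adjusted p = 0.20). Atf4 itself had 5.19 and 5.71 against 4.37 and 4.12 (-1.21 ± 0.25, limma adjusted p = 0.19). In all 4 genes both untreated arrays lay above both treated ones, with untreated replicate 2 the highest.

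NRF2 antioxidant genes, which protect cells from oxidants, were lower too: 28 of 34 tested were below 0, 23 lower and 2 higher without overlap, and 14 lower and 0 higher at an unadjusted p under 0.05. The median was -0.56 and turned to 0.06 with spike-in scaling. Nqo1, a quinone reductase, measured -0.08 and -0.42 in untreated and -2.16 and -1.58 in treated grafts (-1.62 ± 0.36, limma adjusted p = 0.20). Srxn1, which restores oxidized peroxiredoxins, had -2.05 and -1.67 against -3.51 and -3.16 (-1.48 ± 0.27, limma adjusted p = 0.17), and Maff, a small partner of NRF2, -3.29 and -2.75 against -4.61 and -4.75 (-1.66 ± 0.27, limma adjusted p = 0.15). None of these 3 groups of arrays overlapped, and each of the 3 genes stayed lower in treated grafts with spike-in scaling. Ugdh, which makes the sugar acid for glucuronidation, differed by -1.02 ± 0.22. Its promoter was the 1 of the 4 with the antioxidant response element core TGACNNNGC, which 12.06% of promoters hold.

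Tubular injury and repair genes had a median of -0.89, with 32 of 35 tested below 0, 22 lower and 3 higher without overlap. At an unadjusted p under 0.05, 8 were lower and 2 higher, among the latter Vcam1. The median was -0.47 without untreated replicate 2, -1.40 without untreated replicate 1 and -0.28 with spike-in scaling. Krt20, a keratin that injured tubules express, measured -0.13 and -0.76 in untreated and -4.96 and -3.62 in treated grafts. It was 14.4-fold higher in untreated grafts (-3.85 ± 1.16, limma adjusted p = 0.22), and the low-difference arrays were lower still, at -5.68 and -6.31. Tnfrsf12a, the receptor for TWEAK, had 5.39 and 6.13 against 4.17 and 3.58 (-1.88 ± 0.59), and Ccn1, a matricellular protein induced by injury, 2.98 and 3.79 against 1.87 and 1.82 (-1.54 ± 0.49).

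Havcr1, which encodes the kidney injury molecule KIM-1, was not tested because its spot on untreated replicate 2 was flagged. Its level was 7.43 on untreated replicate 1 and 3.56 and 5.49 on the treated arrays. Spp1, osteopontin, had 9.09 and 9.05 against 8.68 and 8.52 (-0.47 ± 0.30), and turned to 0.14 with spike-in scaling and to 0.08 with quantile normalization. Immediate early genes, the first transcribed after a stimulus, had a median of -0.64 (-0.27 without untreated replicate 2 and -0.03 with spike-in scaling), with 5 lower and 1 higher at an unadjusted p under 0.05. Jund, a subunit of the AP-1 factor, was lower (-1.14 ± 0.30), and Klf2, a factor of quiescent endothelium, was higher (0.90 ± 0.19).

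Genes of the nephron segments lay closer to 0. Proximal tubule genes had a median of 0.47 over 51 tested, with 8 higher and 4 lower at an unadjusted p under 0.05, and the median was 0.03 without untreated replicate 2. G6pc1, the last enzyme of gluconeogenesis, measured 4.22 and 1.29 in untreated and 6.42 and 5.78 in treated grafts (3.34 ± 0.90, limma adjusted p = 0.21). Acmsd, an enzyme of tryptophan breakdown, had -1.03 and -4.07 against 0.61 on both treated arrays (3.16 ± 0.95), and Slc9a3, the apical sodium-proton exchanger, -0.91 and -2.43 against 0.21 and 0.76 (2.16 ± 0.62). In these 3 genes untreated replicate 2 was the lowest, and without it the differences were 1.88 for G6pc1, 1.64 for Acmsd and 1.40 for Slc9a3. The members with the smallest p went the other way, with similar values when that array was left out (-1.35 for Slc17a3 and -0.93 for Slc17a1). Slc17a3, an anion transporter, had 5.70 and 5.52 in untreated and 4.17 and 4.54 in treated grafts (-1.26 ± 0.24, limma adjusted p = 0.18), and its relative Slc17a1 differed by -0.88 ± 0.19 (limma adjusted p = 0.20).

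Loop, distal tubule and collecting duct genes had a median of 0.44 over 40 tested (0.29 without treated replicate 1), with 0 higher and 1 lower at an unadjusted p under 0.05. The latter was Cldn19, a tight junction protein of the thick ascending limb, at 1.94 and 3.02 against 1.16 and 1.37 (-1.21 ± 0.41, and -0.67 without untreated replicate 2). Aqp2, the water channel of the collecting duct, had 2.60 and 0.56 against 3.17 and 3.91 (1.96 ± 0.83, and 0.94 without untreated replicate 2). Podocyte genes had a median of 0.33 (0.15 without treated replicate 1), with 16 of 24 tested above 0, 6 higher and 1 lower at an unadjusted p under 0.05. Fatty acid oxidation genes, the main fuel pathway of the proximal tubule, had 31 of 34 members above 0 and a median of 0.43, or 0.25 without untreated replicate 2. Oxidative phosphorylation subunits had 41 of 52 members above 0, a median of 0.12 and 1 at an unadjusted p under 0.05, Ndufa9 (0.60 ± 0.22). DNA replication and mitosis genes had 38 of 48 members above 0 and a median of 0.68, but 0 had an unadjusted p under 0.05, and the median was 0.18 without untreated replicate 2.

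Of the other genes lower in treated grafts, Exph5, which takes part in vesicle transport, had levels of -5.31 and -3.91 against -8.20 and -8.55. It was not well above background on either treated array and on 1 of the untreated ones, which gives at least a 2.91-fold excess in untreated grafts (log2 difference -1.19 with normexp, below that bound). Vgf, a secreted neuropeptide precursor, measured 1.07 and 3.90 against -1.41 and -0.63 (-3.51 ± 1.35, and -2.09 without untreated replicate 2), Cyp3a9, a drug-metabolizing cytochrome, 0.17 and -0.19 against -3.80 and -2.88 (-3.33 ± 1.14) and Akr1b8, an aldehyde reductase of the NRF2 list, 2.63 and 3.28 against -0.02 and 0.88 (-2.52 ± 1.02). Their groups did not overlap, and the prednisolone arrays lay on opposite sides, at -0.17 and -4.08 for Cyp3a9 and at 2.27 and -0.71 for Akr1b8.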

How the data were processed

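Total RNA of each kidney sample was labelled with Cy3 and hybridised to a 1-colour Agilent rat array, per the labels' protocols, and the file headers name Feature Extraction 9.5.1.1. Each deposited file holds, per spot, the processed signal intensity, background-subtracted within the array and not scaled between arrays, with flags for outliers, for saturation and for being well above background. The authors' value table holds intensities that equalled the processed signal times 1 factor per array for 100% of its nonzero probes with 1 spot, to within 0.01 log2 units, and the sources used here do not give the basis of that factor. Per the file headers and columns, 0 columns were left unmapped.

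Control and outlier-flagged spots were left out, and log2 signals were scaled by each array's 75th percentile. Of 41012 probes, 28686 were tested: in 1 group or more, both arrays had to be well above background (765 had a flagged spot only, 11561 were dim). The probe with the highest mean stood for each of 24448 genes, 12460 of which carried a symbol. Probes were named from the files, updated through RefSeq genes of GRCr8 (10735 by accession, 5571 by symbol, 1217 by gene ID, 3729 by synonym, 19760 kept). The test was limma's (version 3.58.1, R 4.3.3), with moderated variances (eBayes), in a fit of all 8 arrays with 4 residual and 2.37 prior degrees of freedom, Benjamini-Hochberg adjusted, with a threshold of 0.05. The method was tested on simulated data. An exact permutation test of 2 against 2 cannot give a two-sided p below 0.33 and was not used. With 2 arrays a group, precision is limited by their number.

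The comparison and the 36 gene lists were chosen with earlier results of these data known. Named genes were the 10 each way with the smallest p, the 10 in each direction that differed most among those above background on all 4 arrays with an unadjusted p under 0.05 (both without overlap), the 4 members of each list with the smallest p, and 15 followed genes. Genes of these of which nothing is known, and some list members, were left out, and some results are not reported here. Alternatives covered background correction, scaling, filters, the authors' table, the fit and each array left out. Replicate 2 minus 1 correlated at 0.01 between the 2 compared groups. That 1 value cannot show whether replicate numbers pair the samples. The main fit did not pair them, and a replicate block was 1 of the alternatives.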

Additional observations from a re-analysis of the deposited data

How the results depend on the processing

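Among fits with both arrays of each compared group, the count of 0 called genes became 166 without the prednisolone group and 7 with quantile normalization. The count was 2 with spike-in scaling, 1 each with median scaling and the authors' table, and 0 in the fit of the 4 compared arrays alone. With the replicate block it was 0, with 1604 higher and 1926 lower at an unadjusted p under 0.05. Those counts were 3844 and 44 with spike-in scaling, and 926 higher with normexp. Over probes above background on all 4 arrays, which left 21217 genes, 1112 were higher. With 1 array left out they ranged from 806 to 2582 higher and 760 to 3736 lower. Genes without overlap were 17149 higher and 977 lower with spike-in scaling and 3288 higher with normexp, each of 24448 tested. Without the filter on dim probes, 15068 of 34923 genes tested were lower. An arm left with 1 array was assumed to vary like the others.

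With spike-in scaling, list medians turned to 0.057 (NRF2), 0.31 (heat shock), 0.29 (ER chaperones), 0.22 (p53), 0.52 (glycolysis and hypoxia; 0.049 with quantile normalization) and 0.32 (red cells). The clock median turned to -0.085 with normexp and ranged from -0.059 to 0.504 with 1 array left out. The B and plasma cell median turned to -0.15 with normexp and -0.14 without the dim filter. It ranged from -0.11 to 1.38 with 1 array left out. Over probes above background on all 4 arrays it was -1.92, the value of the 1 member left, Fcer2. Normexp turned Ccl22 to -0.030, Cd3e to -0.15, Gbp5 to -0.066 and Prtn3 to -0.019. Spike-in scaling turned Edn1 to 0.13, Socs3 to 0.019, Spp1 to 0.14, Stat3 to 0.36 and Tsc22d3 to 0.31. Spp1 turned to 0.081 with quantile normalization, and with 1 array left out Fkbp5 ranged from -0.10 to 0.34, Il6r from -0.058 to 0.69, Socs3 from -1.33 to 0.14 and Tsc22d3 from -0.67 to 0.056. The cause of these changes was not tested.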

Other observations

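Several stress and timekeeping programs lay nearer to the median of all genes. The p53 and growth arrest genes had a median log2 difference of -0.39, with 16 of 18 tested below 0 and 3 lower at an unadjusted p under 0.05. Tp53inp1, a p53-induced regulator of cell death, measured -0.99 and -0.29 in untreated and -1.61 and -1.73 in treated grafts (-1.03 ± 0.27, limma adjusted p = 0.21; -0.68 without untreated replicate 2). Gdf15, a stress-induced cytokine, had 2.65 and 3.80 against 1.02 and 2.07 (-1.68 ± 0.69, and -1.11 without untreated replicate 2). Endoplasmic reticulum chaperones had 17 of 19 members below 0 (median -0.33), and heat shock genes 15 of 20 (median -0.31). All 3 lists turned above 0 with spike-in scaling. Clock genes had a median of 0.20, with Per2 higher (0.89 ± 0.32) and Nfil3, a repressor of the clock, lower (-1.19 ± 0.47). Glucocorticoid-responsive genes had a median of -0.16 over 20 tested (0.45 with spike-in scaling), and the receptor gene Nr3c1 (0.41 ± 0.22), Fkbp5 (0.12 ± 0.21) and Tsc22d3 (-0.31 ± 0.41) differed by less than 2 standard errors.

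Genes of neighbouring tissues and blood gave mixed values. Of 18 adrenal, fat, liver and muscle genes on the array 9 were tested, with a median of -0.06 (0.56 with spike-in scaling). Fabp4, a fatty acid carrier of adipocytes, macrophages and capillary endothelium, was the exception, at -2.09 and -4.27 in untreated and -0.13 and -0.28 in treated grafts (2.97 ± 0.72, limma adjusted p = 0.20; 1.88 without untreated replicate 2). Adipoq, the adipocyte hormone, went the other way (0.70 and 1.17 against 0.27 and 0.66; chosen after its values were seen). Red blood cell genes had a median of -0.30 over 6 tested, and B and plasma cell genes of 0.85 over 4. Of these 4, 1 was well above background on all 4 arrays, Fcer2, and it was lower in treated grafts (-1.925). Glycolysis and hypoxia genes had a median of -0.09, with Hif1a lower at 4.77 and 5.04 against 4.21 and 3.97 (-0.81 ± 0.24).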
